A study of Homo sapiens with 15 samples.

Results

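HSPA8, HSPH1, HSPA4, HSPA4L, HSPA6, HSPA13 and HSPA14 are genes of the human HSP70 superfamily that could be counted in these libraries. They were chosen by symbol, under the name of cytosolic HSP70 and HSP110 genes, and the 7 of them stand among 59608 genes in the deposited table. HSPA2 is not among them, nor are HSPA1A and HSPA1B, whose rows are uncertain, and these are given with the other relatives. Cells of MDA-MB-231, an established line from human breast cancer with mesenchymal features, were grown in 2D culture and treated for 6 h. The groups were vehicle (0.1% DMSO) and ZJ-101 at 0.5, 5, 50 or 500 nM, with 3 libraries in each of the 5 groups. ZJ-101 is a synthetic analog of the marine macrolide superstolide A. All 15 libraries came from the same line and time, and no gene was altered. The question put to these genes is how their RNA changed with the dose. The labels call the treated libraries biological replicates, but they do not say whether dishes were set up on separate days, so p-values measure the spread between these libraries only. RNA came from whole dishes, so more RNA in every cell and more cells with high RNA cannot be told apart.

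HSP70 proteins hold unfolded stretches of other proteins and let them go in a cycle driven by ATP. J-domain proteins deliver the client and trigger hydrolysis of ATP, and exchange factors then release ADP so that the client can leave. HSP110 proteins are distant relatives of HSP70 that act mainly as such exchange factors. When unfolded proteins build up in the cytosol, heat-shock factor 1 binds heat-shock elements, runs of short inverted units in promoters, and raises transcription of many chaperone genes. HSPA8 is the constitutive HSP70 of the cytosol (also called HSC70) and strips clathrin from vesicles. HSPA6 is an HSP70 that most cells make only under stress. HSPH1, HSPA4 and HSPA4L are the HSP110 proteins. HSPA14 is an atypical HSP70 that works at the ribosome with the J-domain protein DNAJC2. HSPA13, also called STCH, is a short HSP70 without the usual client-binding domain that is found with microsomes. The name cytosolic therefore does not suit HSPA13. It is described in a paragraph of its own, but counts, medians and sums over the chosen genes include it.

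The promoters of 5 of the genes are shown, and those of HSPA4L and HSPA13 are left out. Each line gives the 250 bases before the start of the GENCODE release 44 canonical transcript on hg38, 5′ to 3′ on the strand of the gene. Capitals mark heat-shock units that face each other or turn away from each other (GAANNTTC or TTCNNGAA, searched on both strands). Where such a pair is joined by a unit of the next turn (GAANNTTCNNGAA or TTCNNGAANNTTC), the capitals run over 13 bases and mark an element of 3 units, which holds 2 overlapping pairs. HSPA8 lies at chr11:123062137-123062386 (minus strand), HSPH1 at chr13:31161905-31162154 (minus strand) and HSPA6 at chr1:161524290-161524539 (plus strand), and these are the members with 3 units. HSPA4, at chr5:133051763-133052012 (plus strand), held no pair, and HSPA14, at chr10:14838056-14838305 (plus strand), held a single pair. HSPA4L, not shown, also held a single pair. Its log2 fold change at 500 nM against DMSO was 0.87, where that of HSPA14 was 0.038. A link between response and heat-shock units was not tested.
HSPA8: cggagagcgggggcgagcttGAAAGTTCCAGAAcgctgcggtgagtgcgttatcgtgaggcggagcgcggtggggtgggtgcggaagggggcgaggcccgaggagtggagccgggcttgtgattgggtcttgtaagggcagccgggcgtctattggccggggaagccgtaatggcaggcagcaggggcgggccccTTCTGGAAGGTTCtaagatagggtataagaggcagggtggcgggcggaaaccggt
HSPH1: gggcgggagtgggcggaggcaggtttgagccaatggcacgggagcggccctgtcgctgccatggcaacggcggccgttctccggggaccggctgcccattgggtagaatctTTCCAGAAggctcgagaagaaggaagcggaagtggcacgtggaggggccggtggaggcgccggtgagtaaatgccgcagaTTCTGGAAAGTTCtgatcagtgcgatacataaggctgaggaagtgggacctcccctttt
HSPA6: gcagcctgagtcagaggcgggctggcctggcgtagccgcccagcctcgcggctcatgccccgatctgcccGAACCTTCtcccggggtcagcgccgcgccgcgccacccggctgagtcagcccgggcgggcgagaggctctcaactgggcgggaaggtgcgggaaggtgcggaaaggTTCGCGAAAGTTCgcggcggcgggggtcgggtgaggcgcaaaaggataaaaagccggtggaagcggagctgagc
HSPA4: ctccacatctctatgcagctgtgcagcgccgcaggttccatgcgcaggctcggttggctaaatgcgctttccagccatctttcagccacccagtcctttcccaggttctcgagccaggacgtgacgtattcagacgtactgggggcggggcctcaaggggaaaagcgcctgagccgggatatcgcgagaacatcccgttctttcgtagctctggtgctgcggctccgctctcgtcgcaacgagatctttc
HSPA14: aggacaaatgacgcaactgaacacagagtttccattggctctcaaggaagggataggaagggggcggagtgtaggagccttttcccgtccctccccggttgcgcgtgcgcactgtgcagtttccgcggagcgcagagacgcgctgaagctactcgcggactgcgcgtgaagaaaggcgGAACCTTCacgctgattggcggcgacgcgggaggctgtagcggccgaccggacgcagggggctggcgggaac

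HSPA8 held 2 elements of 3 units, from base -230 to -218 and from -55 to -43 before the start. HSPH1 held 1 from -59 to -47, and HSPA6 held 1 from -74 to -62. Single pairs lay further out in HSPH1 (from -139) and HSPA6 (from -180). HSPA4L held 1 pair from -170 to -163, and HSPA14 held 1 from -72 to -65. HSPA4 and HSPA13 held neither form. Over the window from 250 bases before to 50 bases after the start, 3 units stood in 0.365% of 20020 protein-coding promoters and in 0.298% of the 11744 whose gene passed the filter on low values. Pairs stood in 11.0% and 8.94% of these promoters. The CCAAT box stood in 36.0% of all promoters, and in HSPA8, HSPH1 and HSPA14, which held 2 each. These matches describe letters in the window and say nothing of binding. The start matters for HSPH1: the RefSeq table for GRCh38.p14 lists a start 484 bases upstream, and the window there held no pair. HSPA8 and HSPA6 also held 3 units at their RefSeq starts.

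**Figure D1:**
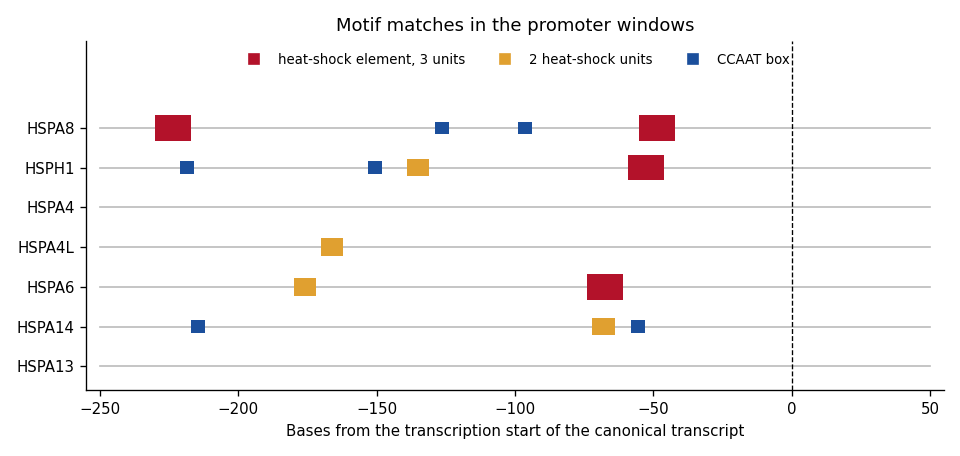
Matches to heat-shock units (3 units in red, single pairs in orange) and to the CCAAT box (blue) in the promoter windows of the 7 genes, against bases from the transcription start (dashed line). Elements of 3 units lie between -74 and -43 in HSPA8, HSPH1 and HSPA6, HSPA8 has another near -230, and HSPA4 and HSPA13 have no match.

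Recovered reads on genes numbered 12415519 to 15284762 per library (median 13320354), and mitochondrial genes took 0.889% to 2.06% of them. VIM, CD44, AXL and CAV1, markers of this line, stood between 7328 and 18413 normalized counts, ESR1 between 0 and 4.30 and the leukocyte marker PTPRC between 0 and 3.53. The other genes checked were not at 0: PGR reached 17.3, CDH1 206, EPCAM 320 and the endothelial marker PECAM1 321. The second library of 0.5 nM stood apart from its group, with a standard deviation of log2 differences of 0.32 against 0.24 to 0.29 in the others. All values below are normalized counts, meaning reads divided by the size factor of the library. Tests used limma on log2(normalized count + 1) over 13561 genes with a mean of at least 10, with Benjamini-Hochberg adjusted p and a threshold of 0.05. Fold changes refer to this log scale, so those of weakly counted genes come out too small. Without replicate 2 of 0.5 nM, 1443 genes were called higher and 1654 lower at 500 nM against DMSO, in place of 1043 and 1366. All 7 genes passed the filter, HSPA6 only through its values at 50 and 500 nM.

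Against DMSO, none of the 7 genes passed the test at 0.5 nM, HSPA8 alone did at 5 nM, and 6 did at 50 nM and again at 500 nM. At 500 nM HSPA8, HSPH1, HSPA4, HSPA4L and HSPA6 had risen, HSPA13 had fallen, and HSPA14 did not pass. HSPA6 entered the test only through its values at 50 and 500 nM, so its calls there are not independent of the filter. The median log2 fold change of the 7 was 0.87 at 500 nM, where that of all genes tested was 0.0027. Over all genes tested, 7.69% were called higher and 10.1% lower at 500 nM, and 2.29% and 3.71% at 50 nM. At 5 nM these shares were 0.465% and 1.71%. At 0.5 nM 0.251% were called higher and 0.922% lower, and none of the 7 genes had an unadjusted p under 0.05 by limma or was called by edgeR or DESeq2. The 4 comparisons share the DMSO libraries and are given side by side. The genes were chosen with earlier results of these data known, so their counts beside the shares of all genes are descriptions. The libraries of 500 nM all lay above those of DMSO for 6 of the genes, which held for 18.9% of all genes tested, and all below for HSPA13, as for 19.6% of all genes. At 50 nM 5 genes lay wholly above (11.6% of all genes) and HSPA13 wholly below (13.2%), at 5 nM HSPA8 lay wholly above (10.5%), with none wholly below (12.7% of all genes), and at 0.5 nM all 7 overlapped DMSO (7.43% of all genes lay wholly above and 10.7% wholly below).

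**Figure D2:**
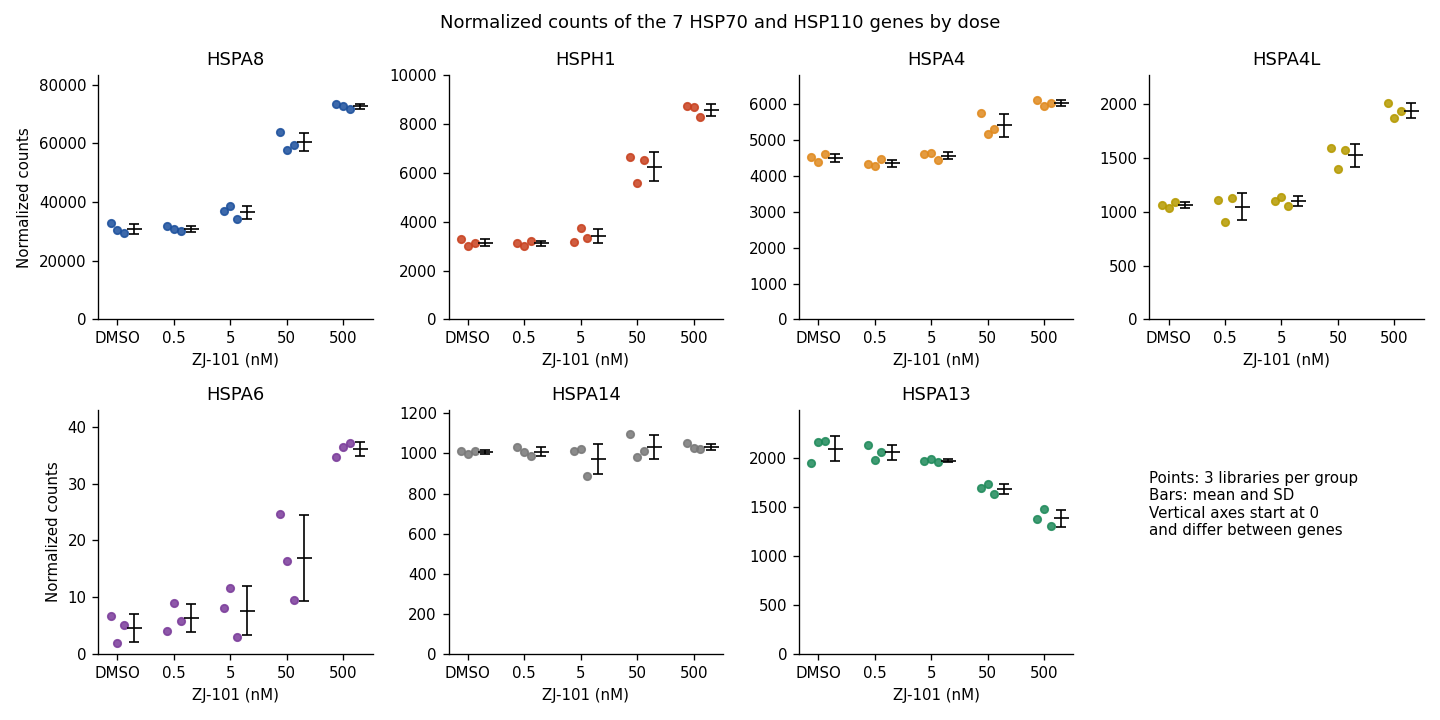
Normalized counts of each gene in every library (points, replicates 1 to 3 from left to right) for DMSO and 0.5, 5, 50 and 500 nM ZJ-101, with the mean and SD of each group beside them (n = 3). HSPA8, HSPH1, HSPA4, HSPA4L and HSPA6 stand above DMSO at 50 and 500 nM, HSPA13 stands below, and HSPA14 stays between 888 and 1097 throughout.

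HSPA8 had by far the most RNA of the 7. In DMSO its libraries held 32830, 30333 and 29337 normalized counts (replicates 1, 2 and 3), and at 0.5 nM 31879, 30743 and 30026. At 5 nM they held 36798, 38577 and 34192, which lay above all DMSO libraries by a narrow margin. At 50 nM they held 63856, 57772 and 59543, and at 500 nM 73465, 72786 and 71796, so that the groups of 50 and 500 nM overlapped neither DMSO nor each other. The log2 fold change against DMSO was 0.24 ± 0.056 (SE) at 5 nM (limma adjusted p = 0.024), 0.97 ± 0.056 at 50 nM (adjusted p = 1.3e-09) and 1.24 ± 0.056 at 500 nM (adjusted p = 1.9e-11). The last is a 2.36-fold rise with a 95% interval of 2.18 to 2.56, the 12th smallest p of all genes tested. The call at 5 nM was lost without a filter on low values (adjusted p = 0.053). It was also lost without 5 nM replicate 1 (0.10), 5 nM replicate 2 (0.16), DMSO replicate 2 (0.12) or DMSO replicate 3 (0.14), with log2 fold changes of 0.20 to 0.24.

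HSPH1, the best known HSP110, followed a like course at lower counts. Its DMSO libraries held 3284, 2994 and 3149, those of 0.5 nM 3135, 3002 and 3215, and those of 5 nM 3179, 3760 and 3317. Only at 50 nM (6672, 5590 and 6509) did all libraries stand above DMSO, and those of 500 nM (8734, 8693 and 8296) stood higher again. The log2 fold change was 0.12 ± 0.066 at 5 nM (limma adjusted p = 0.48), 0.99 ± 0.066 at 50 nM (adjusted p = 8.1e-09) and 1.45 ± 0.066 at 500 nM (adjusted p = 2.1e-11). At 500 nM this was 2.73-fold (95% interval 2.48 to 3.00), the 5th largest log2 rise of all genes tested.

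HSPA4 and HSPA4L, the other HSP110 genes, rose by less. HSPA4 libraries held 4528, 4372 and 4607 in DMSO, 4331, 4274 and 4465 at 0.5 nM, and 4600, 4623 and 4451 at 5 nM. They held 5764, 5160 and 5299 at 50 nM and 6101, 5940 and 6028 at 500 nM. Neither high dose overlapped DMSO, with log2 fold changes of 0.26 ± 0.043 (limma adjusted p = 5.1e-04) and 0.42 ± 0.043 (adjusted p = 9.5e-07), the latter 1.34-fold (95% interval 1.26 to 1.42). HSPA4L, which is expressed most strongly in testis, held 1061, 1034 and 1090 in DMSO, 1108, 901 and 1125 at 0.5 nM, and 1101, 1138 and 1052 at 5 nM. Its low value at 0.5 nM is that of the library that stood apart. HSPA4L rose to 1591, 1396 and 1575 at 50 nM and to 2007, 1870 and 1932 at 500 nM. These are log2 fold changes of 0.52 ± 0.072 (limma adjusted p = 8.7e-05) and 0.87 ± 0.072 (adjusted p = 6.0e-08), the latter 1.82-fold (95% interval 1.64 to 2.02). At 500 nM the 95% intervals of the 3 HSP110 genes did not overlap each other.

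HSPA6, the stress-inducible HSP70, was barely counted without the compound. Its DMSO libraries held 6.73, 2.02 and 5.07 normalized counts, 14 reads in all 3 together. Those of 0.5 nM held 4.12, 9.01 and 5.86, and those of 5 nM 8.21, 11.6 and 3.09, all within reach of DMSO. At 50 nM they held 24.7, 16.4 and 9.57, and at 500 nM 34.7, 36.4 and 37.1, 112 reads in all. The 50 nM libraries were the most scattered, and those of 500 nM were close to each other. HSPA6 passed the filter only through these groups, so its calls are not independent of the filter. The log2 fold change was 1.69 ± 0.44 at 50 nM (limma adjusted p = 0.027) and 2.83 ± 0.44 at 500 nM (adjusted p = 1.4e-04). The latter is a fold of 7.10 with a 95% interval of 3.72 to 13.5, and it depends on the pseudocount: with 5 in place of 1 the log2 fold change at 500 nM was 2.13. The call at 50 nM was lost with no filter on low values (adjusted p = 0.083), without replicate 1 (0.16) or 2 (0.068) of 50 nM, and without replicate 2 (0.16) or 3 (0.055) of DMSO. HSPA6 has a near-identical relative, the pseudogene HSPA7, whose locus matches its transcript at 97.8% identity, so a few of its reads may have been split. HSPA7 itself was listed at 0 to 1.03.

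HSPA14, the ribosome-linked HSP70, held 1011, 995 and 1011 in DMSO, 1031, 1006 and 987 at 0.5 nM, and 1011, 1020 and 888 at 5 nM. At 50 nM it held 1097, 982 and 1014, and at 500 nM 1050, 1028 and 1022. The 500 nM libraries lay above those of DMSO, but by 1.03-fold only, with a log2 fold change of 0.038 ± 0.056 (limma adjusted p = 0.71). The 95% interval of that difference ran from -0.08 to 0.15. Of the exon bases of HSPA14, 12.7% are shared on the same strand with MSANTD7, so its count may hold or lack a part of the reads there.

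HSPA13, the microsomal member, went the other way. Its DMSO libraries held 1956, 2167 and 2176, those of 0.5 nM 2134, 1985 and 2061, and those of 5 nM 1968, 1990 and 1965. At 50 nM (1693, 1733 and 1634) and at 500 nM (1381, 1482 and 1306) all libraries lay below DMSO. The log2 fold change was -0.31 ± 0.053 at 50 nM (limma adjusted p = 6.3e-04) and -0.60 ± 0.053 at 500 nM (adjusted p = 1.4e-07), a level 0.662 times that of DMSO (95% interval 0.613 to 0.715). It was the only member called lower in any comparison with DMSO.

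**Figure D3:**
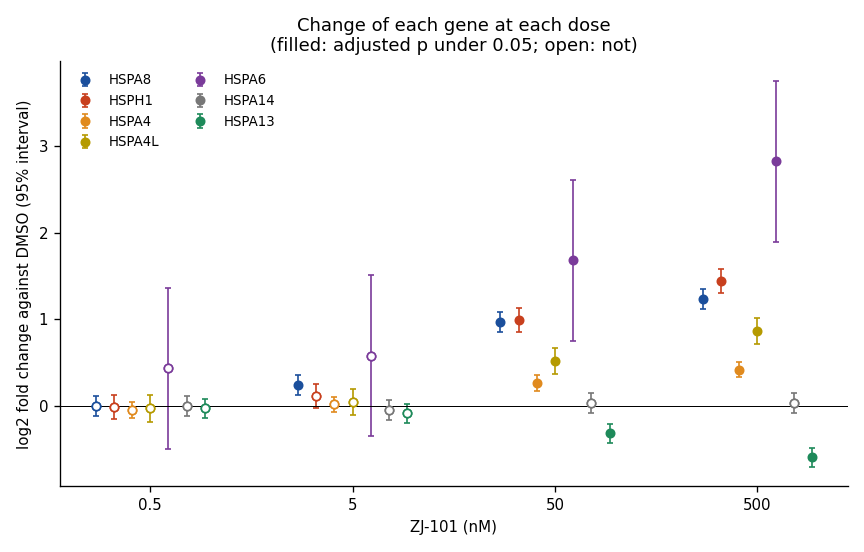
Log2 fold change of each gene against DMSO at 0.5, 5, 50 and 500 nM with its 95% interval (limma, 3 libraries per group), filled where the adjusted p was under 0.05. The points of HSPA8, HSPH1, HSPA4, HSPA4L and HSPA6 rise from 5 to 500 nM, those of HSPA13 fall, and the intervals of HSPA6 are the widest.

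The log2 differences between neighbouring doses do not use the DMSO libraries, which enter their errors and p-values only through the shared estimate of the spread. From 0.5 to 5 nM none of the 7 genes passed by limma or edgeR, against 0.0295% of all genes called higher and 0.0885% lower. HSPA8 alone had an unadjusted p under 0.05 there, with a log2 difference of 0.24 ± 0.056 (limma adjusted p = 0.19), and it was called by DESeq2 (adjusted p = 0.0024). From 5 to 50 nM HSPH1, HSPA8, HSPA4L and HSPA4 rose and HSPA13 fell, where 2.62% and 2.39% of all genes did so. The log2 differences were 0.87 for HSPH1 (adjusted p = 9.5e-08), 0.73 for HSPA8 (1.1e-07), 0.47 for HSPA4L (4.4e-04) and 0.25 for HSPA4 (0.0017). That of HSPA13 was -0.23 (0.015), a call lost without 5 nM replicate 2 (0.060) or 50 nM replicate 3 (0.074). HSPA6 had a large difference of 1.11 with a wide 95% interval of 0.17 to 2.04 (adjusted p = 0.19).

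From 50 to 500 nM HSPH1 (0.46, limma adjusted p = 5.1e-04), HSPA4L (0.35, 0.012) and HSPA8 (0.27, 0.013) rose further. HSPA13 fell further (-0.28, 0.0057). Over all genes 0.479% were called higher and 1.80% lower in this step. Only the call of HSPH1 held in all alternatives that set no fold limit. That of HSPA8 was lost when replicate 2 (0.078) or 3 (0.051) of 50 nM, or replicate 2 (0.054) or 3 (0.051) of 500 nM, was left out. That of HSPA4L was lost when replicate 2 of 50 nM (0.090), or replicate 1 (0.052) or 3 (0.052) of 500 nM, was left out, and that of HSPA13 without 500 nM replicate 3 (0.053). HSPA4 had a difference of 0.16 (0.069), which DESeq2 called (0.023), as did limma without 50 nM replicate 1 (0.017) or 0.5 nM replicate 2 (0.024). The values for HSPA6 were 1.14 (0.26), with a 95% interval of 0.21 to 2.07.

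A linear trend over dose ranks, from DMSO to 500 nM, passed for the same 6 genes, with 5 upward and HSPA13 downward. Of all genes tested, 8.23% had an upward and 9.33% a downward call. The log2 slope per dose rank was 0.69 for HSPA6 (limma adjusted p = 7.8e-05), 0.39 for HSPH1 (7.2e-07) and 0.34 for HSPA8 (8.3e-08). It was 0.23 for HSPA4L, 0.12 for HSPA4 and -0.15 for HSPA13. HSPA6 passed the filter only through its values at 50 and 500 nM, so its slope call is not independent of the filter. The genes differed in how much of the log2 change at 500 nM was present at 50 nM. This share was 78.3% for HSPA8, 68.3% for HSPH1, 62.6% for HSPA4, 59.6% for both HSPA4L and HSPA6, and 52.8% for HSPA13. These shares are descriptions and the differences between them were not tested.

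Levels can be compared between genes only per length, here as normalized counts per kb of the canonical transcript. In DMSO HSPA8 stood at 13619 ± 795 per kb (SD, n = 3), followed by HSPA4 at 943 ± 25.0, HSPH1 at 599 ± 27.6, HSPA14 at 571 ± 5.17, HSPA13 at 532 ± 31.6, HSPA4L at 100 ± 2.63 and HSPA6 at 1.96 ± 1.01. Of these neighbours only HSPH1 and HSPA14 overlapped. At 500 nM the order was HSPA8 at 32104 ± 371, HSPH1 at 1635 ± 46.2, HSPA4 at 1262 ± 16.9, HSPA14 at 586 ± 8.36, HSPA13 at 352 ± 22.3, HSPA4L at 183 ± 6.45 and HSPA6 at 15.3 ± 0.535, with no overlap between neighbours. On this scale HSPH1 stood below HSPA4 in DMSO and above it at 500 nM, and the libraries of the pair overlapped at 50 nM (1193 ± 111 and 1133 ± 66.2). The order depends on the length used. Per kb of all exons, HSPA4 stayed above HSPH1 without overlap, at 887 ± 23.5 against 374 ± 17.2 (357 to 391 per library) in DMSO and at 1187 ± 15.9 against 1022 ± 28.9 at 500 nM. On that scale HSPA13 (471 to 524 per library) and HSPA14 (398 to 404) also stood above HSPH1 in DMSO, and HSPA8 was first and HSPA4L and HSPA6 last on both.

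Summed over the 7 genes, the level per kb was 16367 ± 782 in DMSO, 16343 ± 424 at 0.5 nM, 18898 ± 1079 at 5 nM, 30163 ± 1581 at 50 nM and 36137 ± 442 at 500 nM. The sum at 500 nM was 2.21 times that of DMSO, without overlap (two-sided exact permutation test, p = 0.1, the smallest that 3 against 3 libraries allow). HSPA8 made up 83.2% of the sum in DMSO and 88.8% at 500 nM, and 73.7% and 82.7% per kb of all exons. Per kb of the canonical transcript it gave 93.5% of the net change, HSPH1 5.24%, HSPA4 1.61% and HSPA4L 0.417%. HSPA6 gave 0.0675% of it. HSPA1A, HSPA1B and HSPA2 are not in the sum, and the rows of HSPA1A and HSPA1B cannot be read as low RNA. The fold and the shares therefore hold for these 7 genes only.

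The ratio of HSPH1 to HSPA8 was 0.0432, 0.0426 and 0.0463 in the DMSO libraries. It was 0.0425, 0.0422 and 0.0462 at 0.5 nM, and 0.0373, 0.0421 and 0.0419 at 5 nM, where all libraries lay below DMSO. At 50 nM it was 0.0451, 0.0418 and 0.0472, and at 500 nM 0.0513, 0.0516 and 0.0499. The ratio of 500 nM was 1.16 times that of DMSO and did not overlap it (two-sided exact permutation test, p = 0.1, the smallest possible). By the same exact permutation test, it was 0.918 times that of DMSO at 5 nM (p = 0.1), 0.990 times at 0.5 nM (p = 0.5) and 1.01 times at 50 nM (p = 0.8). This ratio holds HSPH1 alone of the HSP110 genes and does not stand for all exchange factors. Of the summed level per kb of the canonical transcript, HSPH1 made up 3.66% in DMSO and 4.52% at 500 nM. The share of HSPA4 was 5.77% in DMSO and 3.49% at 500 nM, and that of HSPA4L 0.612% and 0.505%.

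**Figure D4:**
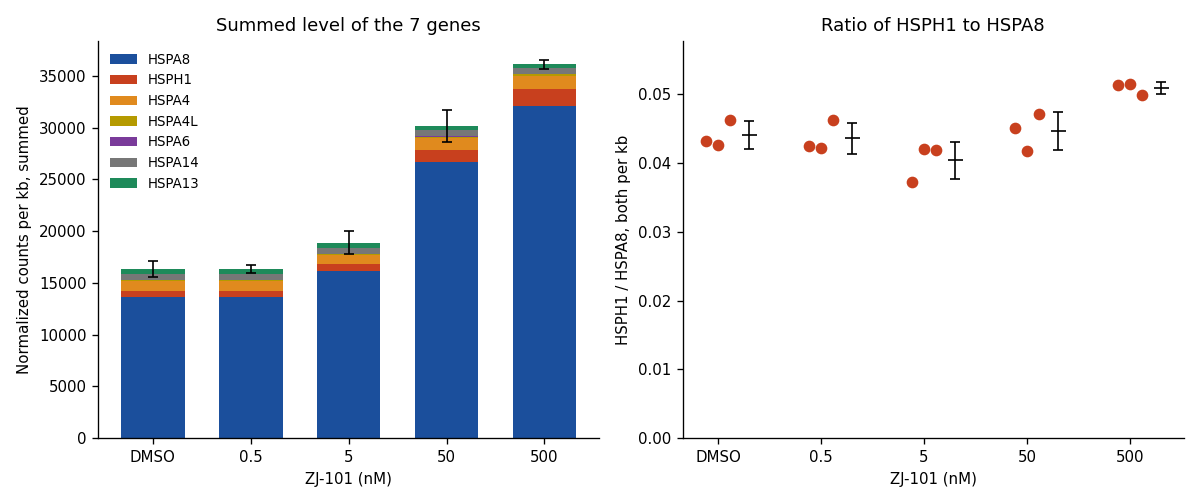
Left, mean normalized counts per kb of the 7 genes stacked for each group, with the SD of their sum (n = 3). Right, the ratio of HSPH1 to HSPA8 in every library with the mean and SD of each group. The sum rises from 16367 in DMSO to 36137 at 500 nM and consists mostly of HSPA8, and the ratio is highest at 500 nM. HSPA1A, HSPA1B and HSPA2 are not in the sum.

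The partners that drive the HSP70 cycle were taken as a list of 20 genes, of which 19 were tested and DNAJA4 (1.02 to 4.25 normalized counts) fell under the filter. At 500 nM 8 of the 19 rose, where 7.69% of all genes did, and none fell, nor did any with an unadjusted p under 0.05. The median log2 fold change of the 19 was 0.18. The list was chosen with earlier results of these data known, so its counts beside the share of all genes are descriptions. Of the J-domain proteins, which feed clients to HSP70, 4 of 9 rose. DNAJB1 went from 2982 ± 106 in DMSO to 5353 ± 141 at 50 nM and 6905 ± 271 at 500 nM, a log2 fold change of 1.21 ± 0.042 (limma adjusted p = 5.0e-13). DNAJA1 rose by 0.71 ± 0.043 (1.0e-09) and DNAJB4 by 0.46 ± 0.092 (0.0015). DNAJB6 rose by 0.41 ± 0.038 (2.0e-07). DNAJC2, the partner of HSPA14, had a value of 0.045 ± 0.097 (0.82). Among adaptors, STIP1, which joins HSP70 to HSP90, rose by 0.67 ± 0.041 (1.2e-09) and ST13 by 0.26 ± 0.042 (2.0e-04), while the ubiquitin ligase STUB1 had a value of -0.041 ± 0.065 (0.74).

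Of the exchange factors outside the HSP110 family, 2 of 7 rose. BAG2 rose by 0.46 ± 0.059 (limma adjusted p = 1.4e-05) and BAG3 by 0.21 ± 0.045 (0.0028). BAG1, BAG4, BAG5 and HSPBP1 lay between -0.01 and 0.03. BAG6 ranged from 18.3 to 243 between libraries without order by dose, and it has 6 copies on alternate contigs of hg38, so its row is uncertain. At 50 nM the same 8 partners were called, with 2.29% of all genes called higher there. The call of BAG3 at 50 nM (adjusted p = 0.029) was lost in 5 of 25 alternatives and that of ST13 (0.011) in 2, with the highest adjusted p of each without DMSO replicate 3 (0.14 and 0.078).

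**Figure D5:**
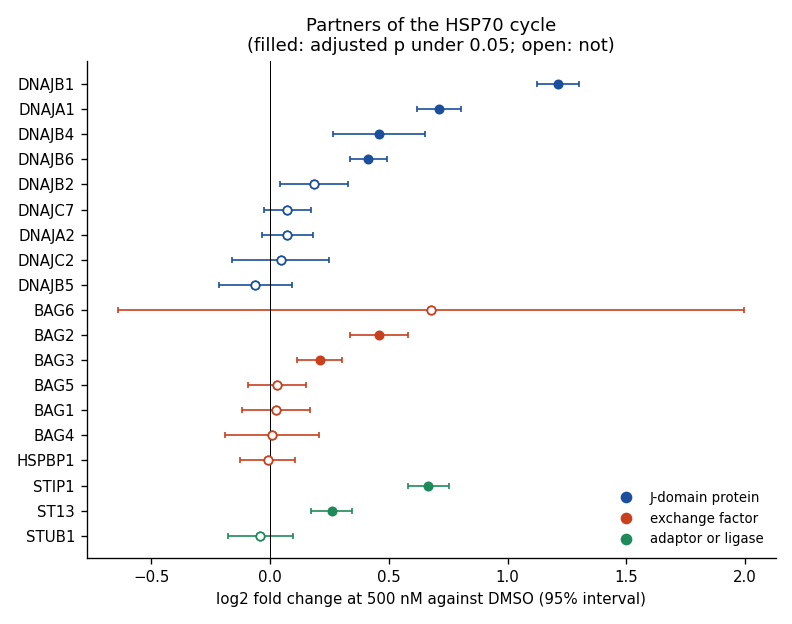
Log2 fold change at 500 nM against DMSO with its 95% interval for the 19 partners tested, grouped as J-domain proteins, exchange factors, and adaptors with the ligase STUB1, filled where the limma adjusted p was under 0.05. DNAJB1 has the largest rise among the called partners, and BAG6 has the widest interval.

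The other HSP70 relatives were a list of 10 genes, of which 6 were tested. HSPA9, the mitochondrial HSP70, rose from 6305 ± 105 to 7556 ± 124 at 500 nM (log2 fold change 0.26 ± 0.041, limma adjusted p = 1.7e-04). The relatives of the endoplasmic reticulum (ER) fell, as HSPA13 did. HSPA5, the HSP70 of the ER lumen known as BiP, went from 14143 ± 313 in DMSO to 12408 ± 139 at 5 nM, 10190 ± 495 at 50 nM and 5439 ± 190 at 500 nM (-1.38 ± 0.042, adjusted p = 1.5e-13). HYOU1, the ER relative of HSP110, was at 4340 ± 170 in DMSO, 4327 ± 57.0 at 50 nM and 3277 ± 107 at 500 nM (-0.41 ± 0.053, adjusted p = 1.8e-05). HSPA2, HSPA12A and HSPA12B did not pass, with log2 fold changes of 0.23, -0.01 and 0.35 (adjusted p of 0.31, 0.97 and 0.29). The stress-inducible HSPA1A and HSPA1B reached at most 3.22 and 1.09 normalized counts in any library, and HSPA1L was listed at 0 in all. These 3 genes have 4 copies each on alternate contigs of hg38, so their rows cannot be read as low RNA.

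Heat-shock elements of 3 units stood in the promoter windows of 35 tested genes, HSPA8, HSPH1 and HSPA6 among them. Of the other 32, 12 were called higher and 3 lower at 500 nM, with a median log2 fold change of 0.16. Over all 11733 tested genes with a promoter window, 8.40% were higher and 11.3% lower, with a median of -0.0026. At 50 nM 8 of the 32 were higher (25.0%) and none lower, against 2.55% and 4.24% of all. At 0.5 nM none of the 32 was called. At 5 nM 1 was lower and none higher. The 12 were HSP90AA1, CHORDC1, DNAJA1, ABHD3, HSPD1, DOCK10, DNAJB6, JMJD6, PGAM5, TMX2, ST13 and RBM23, and the first 5 of them with DNAJB6, JMJD6 and ST13 were those called at 50 nM. DNAJA1, DNAJB6 and ST13 among them are also on the list of partners. HSPA4 and HSPA4L rose without an element of 3 units in the window. So did the partners DNAJB1, STIP1, BAG2, DNAJB4 and BAG3 and the relative HSPA9 at 500 nM. Of 1050 tested genes that held a pair, those with 3 units included, 11.8% were higher and 8.86% lower at 500 nM. These counts describe the windows and were not tested.

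The genes with the most similar profiles were sought by Pearson r of log2(normalized count + 1) over the 15 libraries, which come from 5 groups and share the dose. For HSPA8 these were DNAJB1 (0.99), EPHA2 (0.99) and SLC3A2 (0.99). For HSPH1 they were HSP90AA1 (0.99), the cytosolic HSP90, CHORDC1 (0.99), an HSP90 co-chaperone, and HSPA8 (0.99). For HSPA4 they were HSPH1, SLC43A3 and HSPA4L (0.98 each), and for HSPA4L TRAM2 (0.99), HSPH1 (0.98) and HSPA4 (0.98). HSPH1 was thus among the nearest of both other HSP110 genes, but neither was among its own nearest 3. HSPA6 was closest to RNF121 (0.94), EIF5 (0.94) and RPL7L1 (0.93). HSPA13 was closest to the cell-surface proteoglycan GPC1 (0.98), the ER sheet protein CKAP4 (0.97) and the protease ADAM10 (0.97). HSPA14 had no close profile, with ZNF202 first at 0.86. The values are descriptions with no test.

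By GENCODE release 44 on hg38, HSPA8 lies at chr11:123057489-123063230 and HSPH1 at chr13:31134973-31162388, both on the minus strand. HSPA6 lies at chr1:161524540-161526894 on the plus strand and is a gene of 1 exon block, where HSPA8 has 9, HSPH1 17, HSPA4 20 and HSPA4L 22. HSPA4 (chr5:133052013-133106449), HSPA4L (chr4:127781821-127840733) and HSPA14 (chr10:14838306-14871741) lie on the plus strand and HSPA13 (chr21:14371115-14383484) on the minus strand. No member has a copy on an alternate contig. HSPA8 has processed copies: 17 rows carry its pseudogene symbols, and together they held 1.01 to 6.73 normalized counts per library. Exons of other genes overlap 3.61% of the HSPA8 exon bases on the same strand (SNORD14C and SNORD14D) and 11.4% on the opposite strand. For HSPA4L 6.29% are overlapped on the opposite strand and for HSPA14 1.44%. The strandedness of the counting is not given in the sources used here, so reads of such stretches cannot be assigned.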

How the data were processed

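MDA-MB-231 cells treated for 6 h with DMSO or ZJ-101 gave 15 poly-A libraries. The signal values are normalized counts deposited by the authors, who aligned reads to hg38 with HISAT2, counted them with HTSeq and divided each library by its DESeq2 size factor (submitters' processing notes). Tool versions, strandedness and the annotation release are not given in the sources used here. The deposited table lists 59608 genes; 1 line that holds doses was left out. Dividing by the smallest step of each library gave whole reads for 100.0% of values within 0.001 reads.

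The main test was limma 3.58.1 (R 4.3.3) with a trend on log2(normalized count + 1), for 13561 genes with a mean of at least 10, all 15 libraries fitted together, and p adjusted after Benjamini and Hochberg (threshold 0.05). It was also run on simulated counts of this design that held no outlying library, and the outcome is not given here. Sums and ratios used an exact permutation test. Alternatives were pseudocounts of 0.5 and 5, no filter or a mean of 50, replicate numbers as a block, scaling by TMM, the same total per library, edgeR 4.0.16 and DESeq2 1.42.0 on recovered reads, the 6 libraries compared, each library left out, a log2 fold change of at least 1, the slope over 12 treated libraries, and no division by length. Division by the length of all exons was added after the data had been seen.

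The members and lists were chosen with earlier results of these data known. Named are all members, all listed relatives, up to 3 rises and 3 falls past the threshold per class of partners, and the 3 most similar profiles per member. Outside this rule, BAG1, BAG4, BAG5, BAG6, HSPBP1, STUB1, DNAJB6, DNAJC2, DNAJA4 and the genes with 3 heat-shock units were named after their values had been seen. Gene models and lengths are from GENCODE release 44, other promoter starts from RefSeq (GRCh38.p14), and copies were sought with minimap2 2.31-r1302. HSPA14 had no entry in the RefSeq promoter table. Depth limits the precision of genes with few reads, such as HSPA6 with 14 and HSPA12B with 78 reads in the 3 DMSO libraries together. The main test did not treat equal replicate numbers as pairs, and whether they mark pairs is not settled.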

Additional observations from a re-analysis of the deposited data

How the results depend on the processing

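The calls of HSPA8, HSPH1, HSPA4, HSPA4L and HSPA13 at 50 and 500 nM against DMSO held in all 25 alternatives that set no limit on the fold change, and that of HSPA6 at 500 nM in 23, with no adjusted p from DESeq2 and no test at a mean of 50. With a log2 fold change of at least 1, the members called were 0 at 5 nM, 1 at 50 nM, 3 at 500 nM, 0 from 5 to 50 nM, 0 from 50 to 500 nM and 0 by the slope, and 1 partner and 1 relative were called. Without a filter on low values 0 members were called at 5 nM, and DESeq2 called 1 from 0.5 to 5 nM. With 1 library left out, members called ranged from 0 to 1 at 5 nM and from 1 to 5 between 50 and 500 nM (1 without 500 nM replicate 3, 2 without 50 nM replicate 2).

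Signs turned only for values that passed no test. With the same total per library, the log2 fold changes at 0.5 nM were -0.00038 for HSPA8 and -0.00088 for HSPA14. With 1 library left out, those at 0.5 nM ranged from -0.032 to 0.050 for HSPA8, -0.076 to 0.00064 for HSPA13, -0.013 to 0.018 for HSPA14, -0.046 to 0.021 for HSPH1 and -0.087 to 0.073 for HSPA4L. Those of HSPA14 ranged from -0.086 to 0.014 at 5 nM, -0.012 to 0.068 at 50 nM and -0.030 to 0.050 from 50 to 500 nM, that of HSPA4 from -0.0031 to 0.035 at 5 nM, and that of HSPA12A from -0.093 to 0.037 at 500 nM. The cause was not tested.

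Same-numbered libraries of different groups deviated together weakly at most: 30 pairs had correlations of -0.085 to 0.096, none over 0.1. Their median was 0.012, against -0.00056 for pairs of unlike number, and 9 of 15 libraries correlated best with their own number. These values do not settle whether equal numbers mark pairs. With the replicate block, 1 member was called at 5 nM, 6 at 50 nM and 6 at 500 nM, as without it. Division by the length of all exons gave a rise of the sum of 2.10-fold, and no division 2.15-fold. The log2 fold change of HSPA6 at 500 nM ranged from 2.13 (pseudocount of 5) to 3.11 (without DMSO replicate 1).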

Other observations

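At 5 nM replicate 2 held the highest value of all 7 genes and replicate 3 the lowest value of 6. At 50 nM replicate 1 was highest for 6 of the 7 and replicate 2 lowest for 5. At 500 nM replicate 1 was highest for 5 and replicate 3 lowest for 4. The other groups were more mixed: at 0.5 nM the highest values were split 3, 1 and 3 over replicates 1, 2 and 3, and in DMSO 3, 0 and 4. These counts include the genes that rose and the gene that fell with dose. Counts over all genes tested are not given here, so these cannot be read as a trait of the 7 genes. They are values with no test, and their cause was not tested.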
